A study of Mus musculus with 6 samples.

Results

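The 10 genes described belong to bone morphogenetic protein (BMP) signalling: the ligand gene Bmp4, the receptor genes Bmpr1a and Bmpr2, the signal transducers Smad1 and Smad5, the inhibitors Smad6 and Bambi, and the target genes Id1, Id2 and Id3. They were taken by symbol, and all 10 were found among the 53819 symbols of the count table. Of these 10 genes 5 were lower with budesonide and none was higher, where 13.5% of all tested genes were lower. The largest of these falls were in Smad6 and Id1, which averaged 1.78 ± 0.447 and 0.468 ± 0.288 CPM with budesonide, against 5.11 ± 0.936 and 1.55 ± 0.0234 CPM without it (CPM, the usual count scaled to library size, here with TMM factors; mean ± SD, n = 3 libraries a group). Id1 had enough reads to be tested through the untreated libraries alone (10, 11 and 10 reads, against 5, 1 and 3 with budesonide). The call of Id1 held in 8 of 15 alternative analyses. Smad1, Smad5 and Bmpr2 fell by 0.39, 0.40 and 0.25 on the log2 scale. Bmpr2 kept its call in 8 of 16 alternative analyses, and DESeq2 called 2 of the 10 genes lower.

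RNA came from 3D gastruloids, which are embryonic stem cells of the mouse line E14 grown as aggregates, in which a posterior pole with streak-like cells can form. For 3 libraries the aggregates had received the synthetic glucocorticoid budesonide over 80 h, and for the other 3 they were untreated. Neither a vehicle, nor the age of the untreated aggregates, nor the origin of the replicates from separate cultures is stated, so the p-values measure the spread between these libraries only, which may be technical. E14 is a single cell line, and each library is a bulk sample, in which fewer cells of a type and less RNA per cell cannot be told apart.

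BMP ligands bind a complex of type I and type II receptor kinases at the cell surface. The type I receptor phosphorylates SMAD1, SMAD5 and SMAD9, which join SMAD4 and switch on genes such as Id1, Id2, Id3 and the feedback inhibitor Smad6. ID proteins are helix-loop-helix proteins without a DNA-binding region that tie up E proteins, and in mouse embryonic stem cells BMP4 acting through Id genes is known to help maintain self-renewal alongside LIF. In the embryo, BMP signalling patterns the epiblast and the posterior streak.

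Promoters of 8 of the 10 genes were taken from RefSeq (build GRCm38.p6, while the counts were made on GRCm39). The 250 bases before the start were searched on both strands for 4 motifs. GGCGCC is a GC-rich element that BMP SMADs bind. The SMAD box was searched as CAGACA. The glucocorticoid receptor recognises pairs of half-sites like AGAACA. E proteins bind the E-box, CANNTG. Those of 4 genes are shown, Smad6 as the clearest fall, Bmpr2 as a gene with matches to a pair of the motifs, and Id2 and Id3 as Id genes that did not pass the test. Capitals mark matches to the first 3 motifs on either strand; the half-site reads TGTTCT on the other strand.
Smad6, chr9:64022060-64022309, minus strand: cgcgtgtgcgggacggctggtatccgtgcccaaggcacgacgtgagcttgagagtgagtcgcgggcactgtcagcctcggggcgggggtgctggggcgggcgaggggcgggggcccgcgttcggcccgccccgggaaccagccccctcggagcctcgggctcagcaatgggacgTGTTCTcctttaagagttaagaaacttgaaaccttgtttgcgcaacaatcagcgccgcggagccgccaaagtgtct
Bmpr2, chr1:59764029-59764278, plus strand: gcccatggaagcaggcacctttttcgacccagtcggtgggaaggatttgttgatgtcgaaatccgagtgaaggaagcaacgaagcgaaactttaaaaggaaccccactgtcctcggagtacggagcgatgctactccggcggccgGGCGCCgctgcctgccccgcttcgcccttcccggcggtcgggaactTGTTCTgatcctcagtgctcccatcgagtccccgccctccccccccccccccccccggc
Id2, chr12:25096093-25096342, minus strand: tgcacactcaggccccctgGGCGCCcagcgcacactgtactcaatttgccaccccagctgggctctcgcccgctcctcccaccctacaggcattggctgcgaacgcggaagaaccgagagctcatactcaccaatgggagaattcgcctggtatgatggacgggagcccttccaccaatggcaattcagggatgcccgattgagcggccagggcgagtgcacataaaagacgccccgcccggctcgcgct
Id3, chr4:136143572-136143821, plus strand: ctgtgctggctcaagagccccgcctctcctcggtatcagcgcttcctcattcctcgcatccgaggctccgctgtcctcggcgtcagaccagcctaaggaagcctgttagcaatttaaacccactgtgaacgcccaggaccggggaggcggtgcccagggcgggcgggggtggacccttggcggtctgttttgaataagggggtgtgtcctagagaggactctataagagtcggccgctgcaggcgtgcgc

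In the Smad6 window the single AGAACA match began 76 bases before the start. In the Bmpr2 window GGCGCC began 105 and AGAACA 59 bases before it, and in the Id2 window GGCGCC began 231 bases before it. The Id3 window held none of the 4 motifs. Bmpr1a and 1 of the 3 annotated Smad5 starts also held GGCGCC, and no window of the 8 genes held CAGACA. E-boxes occurred before Bmp4, Id2 and 2 of the 3 Smad5 starts. Among 32851 promoters of the same length 9.59% held GGCGCC, 17.1% CAGACA, 16.1% AGAACA and 66.2% CANNTG. The windows of the BMP genes had a GC content of 60.0% to 78.8%, where all promoters averaged 53.2%. These matches describe letters in the windows and were not read as binding sites.

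Depth was 5666168 to 7476862 reads a library, at which 3 reads are 0.422 to 0.552 CPM. The summed level of 8 pluripotency genes was 2116 to 2346 CPM in budesonide libraries and 1771 to 1815 CPM in untreated libraries, and all 8 lay above the 95th percentile of 1773 olfactory and vomeronasal receptor genes, taken here as a background. The summed level of 8 posterior streak and tailbud genes was 9.86 to 15.1 CPM in budesonide libraries, against 267 to 289 CPM in untreated libraries, with 6 of 8 above background. For primitive endoderm genes it was 30.4 to 31.4 CPM with budesonide, against 83.0 to 93.2 CPM without (4 of 8 above background, with Gata6, Gata4, Sox17 and Sox7 not among them). For trophoblast genes it was 34.1 to 41.3 CPM with budesonide and 26.1 to 34.3 CPM without (3 of 8), and for fibroblast genes 15.78 to 17.95 CPM with and 22.9 to 25.5 CPM without it (4 of 8). For endothelial and blood genes it was 32.3 to 36.2 CPM with budesonide and 26.7 to 31.4 CPM without (5 of 8). Among trophoblast genes, Prl3d1 and Ctsq had 0 to 2 reads in any library, Tpbpa had 0 to 9 and Elf5 had 6 to 13. Ascl2 had 15, 9 and 4 reads with budesonide and 2, 7 and 3 without. Of the embryonic globin genes, Hbb-bh1 had 0 to 3 reads, and Hba-x had 7, 8 and 10 with budesonide and 4, 1 and 3 without. None of these genes had enough reads to be tested. The sums of the streak, endoderm and fibroblast genes were lower in every budesonide library than in any untreated one. Those of the pluripotency genes and of the endothelial and blood genes were higher in every budesonide library, and those of the trophoblast genes overlapped. Not every gene moved with its sum. Col4a1 and Foxa2 carried the endoderm sum, at 17.3 and 0.811 CPM with budesonide and 59.5 and 11.2 CPM without, while Gata6, Gata4, Sox17, Pdgfra and Dab2 were not called. In the fibroblast list Col1a2 and Thy1 were called lower, while Col1a1, Col3a1, Postn and Pdgfrb were not called. In the trophoblast list Tfap2c was called higher, while Krt7 and Gcm1 were not called. In the endothelial and blood list Tek was called higher, while Kdr, Cdh5, Gata1 and Ptprc were not called. Lin28a, of the pluripotency list, was 1.86-fold lower. The part of these marker genes in the results on BMP genes was not tested.

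Across all 17155 genes tested, 28.7% were called, 15.2% as higher and 13.5% as lower with budesonide. A call here means a Benjamini-Hochberg adjusted p below 0.05 in the quasi-likelihood test of edgeR. With library totals and no scaling factors the share of higher genes among those called was 38.6%, against 52.9% with TMM scaling. All 10 BMP and Id genes had enough reads to be tested. Id1 met the filter on low counts through the untreated libraries alone, with 0 budesonide libraries at the filter's level, and Smad6 had 2 of 3 there, so the tests of these genes are tied to their higher untreated level. The count of 5 lower became 2 in DESeq2, 4 with limma, and 3 without untreated replicate 1 or 2. It became 6 under upper quartile scaling and 7 with no scaling factors. The count of 0 higher also held at an unadjusted p under 0.05, in DESeq2 and with limma. The groups did not overlap for 7 of the 10, each lower with budesonide, where 19.8% of all tested genes were lower without overlap. The median log2 fold change of the 10 was -0.32, beside -0.02 over all tested genes.

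**Figure D1:**
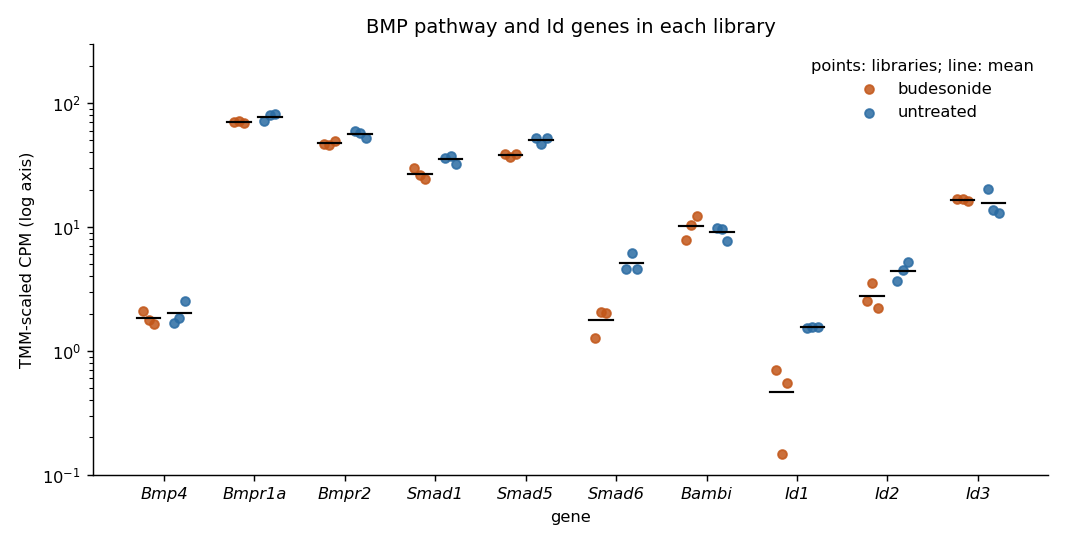
Level of each of the 10 genes in every library, as TMM-scaled CPM on a log axis, with budesonide libraries left of untreated ones and a line at each group's mean. Smad6 and Id1 show the widest gaps between groups, whereas the points of Bmp4, Bambi and Id3 overlap.

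The ligand gene Bmp4 was barely detected in either group. It had 15, 12 and 9 reads in the budesonide libraries and 11, 13 and 16 reads in the untreated libraries. These are levels of 2.11, 1.77 and 1.65 CPM with budesonide and 1.68, 1.83 and 2.51 CPM without. The groups overlapped, and the log2 fold change was -0.10 ± 0.38 (SE; edgeR adjusted p = 0.879). The 95% interval of that difference, -0.86 to 0.65 on the log2 scale, shows how little the reads could resolve. The 95th percentile of the receptor genes was 1.65 to 2.06 CPM with budesonide and 1.83 to 1.89 CPM without. Bmp4 was below it in budesonide replicate 2 and in 2 untreated libraries, and level with it in budesonide replicate 3, at 1.65 CPM. Per kb of exon it was above that percentile in every library.

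The type I receptor gene Bmpr1a was the most abundant of the 10 per length. Its level was 71.0, 71.2 and 69.1 CPM in the budesonide libraries and 72.0, 79.7 and 81.2 CPM in the untreated libraries. Every budesonide library was below every untreated one, by a narrow margin, and at a log2 fold change of -0.14 ± 0.07 (SE) it was not called (edgeR adjusted p = 0.164). Upper quartile scaling let it pass (adjusted p = 0.0398), as did the absence of scaling factors (0.0174), and its range over 15 alternatives was 0.0174 to 0.516.

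Bmpr2 encodes the BMP type II receptor, which activates the type I receptor. It was at 46.8, 46.2 and 49.5 CPM with budesonide and at 59.5, 57.4 and 52.3 CPM without, and the groups did not overlap. It fell 1.19-fold (log2 fold change -0.25 ± 0.08, SE; edgeR adjusted p = 0.0191). The call was lost in DESeq2 (adjusted p = 0.157) and with limma (0.138). It was also lost in edgeR without budesonide replicate 1 (0.0779) or 2 (0.0804), or without untreated replicate 1 (0.103) or 2 (0.0813), within a range of 0.00173 to 0.157 over 15 alternatives.

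Smad1 and Smad5 encode the closely related SMAD proteins that the BMP type I receptor phosphorylates. Smad1 was at 30.1, 26.0 and 24.3 CPM in budesonide libraries and at 36.1, 37.1 and 32.5 CPM in untreated libraries, without overlap. It fell 1.31-fold (log2 fold change -0.39 ± 0.11, SE; edgeR adjusted p = 0.00378), but missed the threshold in DESeq2 (adjusted p = 0.0544, range over 15 alternatives 0.000517 to 0.0544). Smad5 was at 38.6, 36.6 and 39.0 CPM with budesonide and at 52.0, 46.7 and 52.6 CPM without. Its groups were also apart, and it fell 1.32-fold (log2 fold change -0.40 ± 0.09, SE; edgeR adjusted p = 0.000349). Smad5 passed at 0.05 in all 15 alternatives that tested against no change, at adjusted p-values of 2.63e-05 to 0.0116. The reads of both genes together came to 62.7 to 68.8 CPM in budesonide libraries and 83.8 to 88.1 CPM in untreated libraries. Smad1 made up 38.4% to 43.9% of that sum with budesonide and 38.2% to 44.3% without, so the balance between the genes lay in the same range in both groups.

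**Figure D2:**
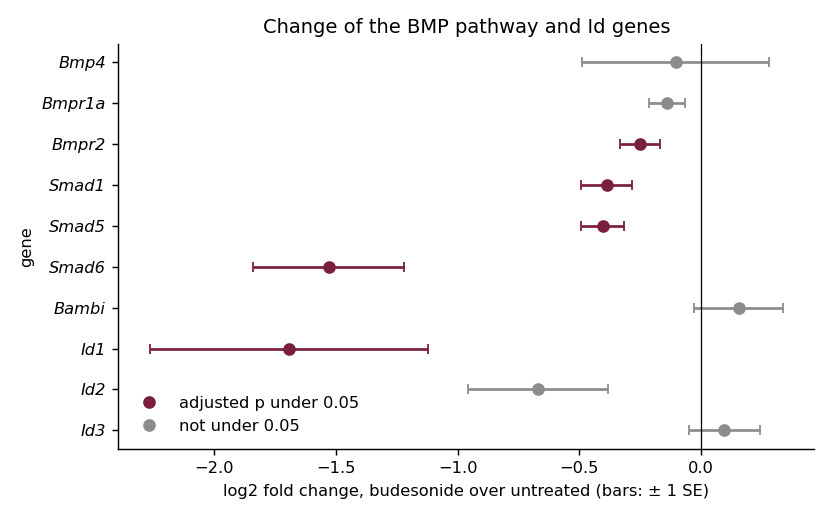
Log2 fold change of each of the 10 genes, budesonide over untreated, with bars of 1 SE (n = 3 libraries a group) and colour marking an adjusted p under 0.05. Smad1 and Smad5 lie at nearly the same value, near -0.4, and Smad6 and Id1 lie below -1.5, Id1 with the widest bar.

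Smad6 encodes an inhibitory SMAD that blocks SMAD1 and SMAD5 and is itself a BMP target gene. It had 9, 14 and 11 reads in the budesonide libraries and 30, 44 and 29 reads in the untreated libraries. As levels these were 1.27, 2.06 and 2.02 CPM with budesonide and 4.57, 6.19 and 4.56 CPM without, so every untreated library stood above every budesonide library. Smad6 fell 2.89-fold (log2 fold change -1.53 ± 0.31, SE; edgeR adjusted p = 0.000113). Only 0.921% of all tested genes had a lower log2 fold change. It was the only one of the 10 to pass a test against a fold of 1.5 (glmTreat of edgeR, adjusted p = 0.0128). The budesonide level was at or below the 95th percentile of receptor genes in 2 of 3 libraries, and in 1 of 3 per kb of exon. From counting error alone, 34 reads against 103 gave a ratio of 0.343, with an exact 95% interval of 0.225 to 0.509.

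Bambi encodes a transmembrane protein that resembles a type I receptor but lacks a kinase domain, and dampens the signal. It was at 7.89, 10.4 and 12.3 CPM in budesonide libraries and at 9.76, 9.70 and 7.70 CPM in untreated libraries. The groups overlapped, and at a log2 fold change of 0.15 ± 0.18 (SE) Bambi was not called (edgeR adjusted p = 0.588). The table also lists a copy, Bambi-ps1, with 3, 9 and 2 reads in the budesonide libraries and 7, 2 and 2 in the untreated libraries, so some Bambi reads may have been assigned to the copy.

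Of the 3 Id genes Id1 was called lower, as was Id2 with no scaling factors, and Id3 was not called under any setting tried. Id1 had 5, 1 and 3 reads in budesonide libraries and 10, 11 and 10 in untreated libraries, which are 0.704, 0.147 and 0.552 CPM with budesonide and 1.52, 1.55 and 1.57 CPM without. The groups did not overlap, and Id1 fell by 1.69 ± 0.57 on the log2 scale (SE; edgeR adjusted p = 0.0204), with 0.618% of all tested genes below it. The counting ratio over the groups' 9 and 31 reads was 0.301, with an exact 95% interval of 0.126 to 0.648. In all 6 libraries Id1 was at or below the 95th percentile of the receptor genes, while per kb of exon it was so in 1 budesonide library only. The call was lost without budesonide replicate 2 (adjusted p = 0.149) or 3 (0.0563) and without untreated replicate 1 (0.0809), 2 (0.0849) or 3 (0.0828), within a range of 0.0149 to 0.149 over 14 alternatives. DESeq2 gave Id1 no adjusted p.

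Id2 was the middle one of the 3 in level. It had 18, 24 and 12 reads with budesonide and 24, 32 and 33 without, or 2.54, 3.53 and 2.21 CPM with budesonide and 3.66, 4.50 and 5.18 CPM without. The highest budesonide library was just below the lowest untreated one. At a log2 fold change of -0.67 ± 0.29 (SE) Id2 was not called (edgeR adjusted p = 0.0771, unadjusted p = 0.0249). It passed with no scaling factors (adjusted p = 0.0461) and without budesonide replicate 2 (0.0454), with a range of 0.0454 to 0.272 over 15 alternatives.

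Id3 carried most of the reads of these Id genes, and its groups overlapped. It was at 16.8, 16.8 and 16.2 CPM in budesonide libraries and at 20.1, 13.6 and 12.9 CPM in untreated libraries. The budesonide values fell inside the wider untreated range, and the log2 fold change was 0.10 ± 0.15 (SE; edgeR adjusted p = 0.688), with a 95% interval of -0.19 to 0.38. Id1, Id2 and Id3 summed to 18.9 to 20.5 CPM with budesonide and 19.6 to 25.3 CPM without. Of that sum Id3 made up 82.0% to 85.4% in budesonide libraries and 65.6% to 79.5% in untreated libraries, and Id1 made up 0.719% to 3.52% with budesonide and 6.02% to 8.0% without. The summed Id level thus overlapped between the groups while the shares of Id1 and Id3 did not.

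Per kb of exon, the scale on which genes can be set beside each other, the untreated order was Bmpr1a, Id3, Smad5, Smad1, Bmpr2, Id2, Bambi, Smad6, Id1 and Bmp4. Bmpr1a stood at 11.1 ± 0.182 CPM per kb in budesonide and 12.2 ± 0.784 in untreated libraries, and Id3 at 9.25 ± 0.191 with budesonide and 8.68 ± 2.22 without. Neighbours in that order whose untreated ranges overlapped were Id2 with Bambi and Bambi with Smad6. In the budesonide libraries the order was the same down to Bmpr2 and went on with Bambi, Id2, Bmp4, Smad6 and Id1, where Id2 overlapped with Bmp4 and Smad6 with Id1. By its mean Id1 was the least abundant of the 10 per length with budesonide. In budesonide replicate 1, though, Smad6 was below it, at 0.396 against 0.607 CPM per kb. Smad6 was at 0.556 ± 0.139 CPM per kb with budesonide and 1.59 ± 0.292 without, and Id1 at 0.403 ± 0.248 with it and 1.33 ± 0.0202 without. The most abundant of the 10 per length were therefore a receptor and a target gene, and the ligand gene Bmp4 was the least abundant in untreated libraries, at 0.892 ± 0.198 CPM per kb.

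**Figure D3:**
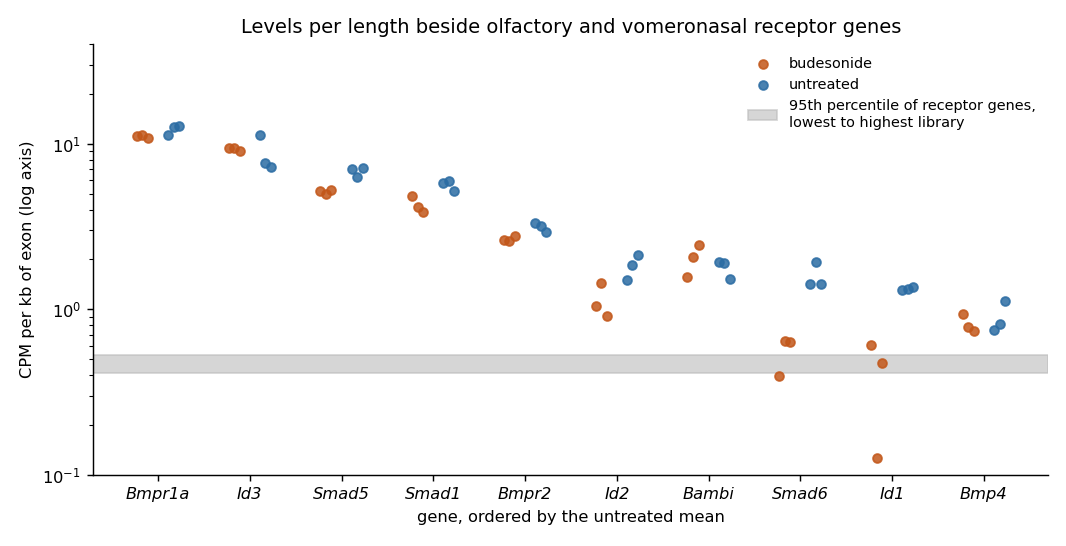
CPM per kb of exon for the 10 genes in every library, log axis, budesonide left of untreated, ordered by the untreated mean. The grey band spans the 95th percentile of receptor genes over the 6 libraries, and Smad6 and Id1 are the genes whose budesonide points reach it.

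The wider pathway was taken as 56 further genes in 7 lists by role, of which 33 could be tested. Of these 33, 2 rose and 13 fell (median log2 fold change -0.24), where 15.2% and 13.5% of all tested genes did. The 23 that could not be tested had 0 to 25 reads in any library. Among the 13 other ligands 5 could be tested and none passed, with log2 fold changes of -0.76 to -0.16. At an unadjusted p under 0.05 the ligand Bmp6 alone was lower (log2 fold change -0.69 ± 0.32, SE; unadjusted p = 0.0377, edgeR adjusted p = 0.107). Bmp7 was the most abundant ligand per length of those tested, at 2.45 ± 0.349 CPM per kb with budesonide and 2.71 ± 0.435 without.

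Of 8 tested receptors and co-receptors 4 fell and 1 rose, beside 13.5% and 15.2% of all tested genes. Rgma, which encodes a membrane-anchored BMP co-receptor, had 68, 68 and 62 reads with budesonide and 264, 272 and 276 without. It fell 3.95-fold (log2 fold change -1.98 ± 0.12, SE; edgeR adjusted p = 8.03e-18). Its groups were far apart. Its relative Rgmb was at 12.95 ± 2.43 CPM with budesonide and 19.4 ± 1.69 CPM without (log2 fold change -0.59 ± 0.14, SE; adjusted p = 0.00117). Acvr2b, a type II receptor that activins, NODAL and BMPs share, fell 1.43-fold (adjusted p = 6.83e-06). Bmpr1b, a type I receptor, fell 1.65-fold (edgeR adjusted p = 0.0404, 0.00551 to 0.189 over 15 alternatives). Its groups overlapped, at 2.68, 4.86 and 2.39 CPM with budesonide and 4.42, 5.91 and 6.28 CPM without. Endoglin, Eng, a co-receptor, rose 1.18-fold (edgeR adjusted p = 0.0464, 0.0274 to 0.201 over 15 alternatives). The calls of these last genes were not stable. Bmpr1b lost its call in DESeq2 (0.185), without a filter on low counts (0.0557), and without budesonide replicate 1 (0.189) or 3 (0.163) or untreated replicate 2 (0.117) or 3 (0.161). Eng was not called in DESeq2 (0.123), with limma (0.0814), upper quartile scaling (0.126), no scaling factors (0.201) or no filter (0.196). It also failed without budesonide replicate 2 (0.0842) or 3 (0.169) or untreated replicate 2 (0.0753) or 3 (0.141).

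Extracellular antagonists bind BMPs or their relatives outside the cell. Of 7 tested 4 fell and none rose, beside 13.5% and 15.2% of all tested genes. Follistatin, Fst, which binds activins and some BMPs, was at 31.9 ± 4.79 CPM with budesonide and 86.3 ± 3.27 CPM without, which is -1.44 ± 0.09 on the log2 scale (SE; edgeR adjusted p = 6.20e-18). Chordin, Chrd, a BMP trap of the organizer and the node, had 3.57 ± 0.571 CPM with budesonide and 6.99 ± 1.47 CPM without (log2 fold change -0.98 ± 0.24, SE; adjusted p = 0.00151). Chrdl1, a chordin relative, and Cer1, an inhibitor of BMP and NODAL ligands, fell by 1.64 ± 0.49 and 1.51 ± 0.43 on the log2 scale (SE; edgeR adjusted p = 0.00772 and 0.00558), and DESeq2 gave neither an adjusted p. Like Id1, both met the filter on low counts through the untreated libraries alone, so the 4 that fell hold 2 genes that were tested because of their untreated level. Chrdl1 lost its call without budesonide replicate 1 (0.0726) or untreated replicate 3 (0.0760), and Cer1 without untreated replicate 1 (0.0723). Noggin, Nog, had 1, 0 and 0 reads with budesonide and 0, 2 and 0 without, and could not be tested.

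Inside the cell, the common partner Smad4 was at 92.7 ± 1.85 CPM with budesonide and 87.8 ± 4.31 CPM without (log2 fold change 0.08 ± 0.07, SE; edgeR adjusted p = 0.455). Smad9 had 5 to 10 reads a library and was not tested. Smad7, the second inhibitory SMAD, which acts on both BMP and NODAL signals, was at 109 ± 10.4 CPM with budesonide and 96.3 ± 8.23 CPM without. It did not pass (log2 fold change 0.17 ± 0.07, SE; edgeR adjusted p = 0.0744), but passed as higher without budesonide replicate 2 (0.0148) or untreated replicate 1 (0.00874), within 0.00874 to 0.398 over 15 alternatives. The ubiquitin ligase gene Smurf2 fell 1.21-fold (adjusted p = 0.0326) and the co-repressor gene Skil 1.13-fold (0.0103). Smurf2 lost its call in DESeq2 (0.212), with limma (0.150), and without budesonide replicate 1 (0.0519) or 2 (0.210) or untreated replicate 1 (0.206) or 3 (0.0507). Skil lost it with limma (0.118) and without untreated replicate 2 (0.0647) or 3 (0.0526). Smurf1 did not pass (adjusted p = 0.0687) except, as higher, without untreated replicate 1 (0.0329), and Ski did not pass.

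Among BMP-induced genes other than the 10, 1 of 4 tested rose and none fell, beside 15.2% and 13.5% of all tested genes, so the count is near the background. The one that rose was Tbx3, a T-box factor that also belongs to the naive pluripotency network. It was at 84.4 ± 4.88 CPM with budesonide and 37.7 ± 1.55 CPM without, a 2.24-fold rise (edgeR adjusted p = 3.64e-16). Id4, the remaining Id gene, had 5.21 ± 1.06 CPM with budesonide and 4.83 ± 0.471 CPM without, and was not called (adjusted p = 0.766). Msx1, Msx2, Dlx5, Hand1 and Atoh8 had too few reads to be tested.

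All 3 genes of the E proteins, the binding partners of ID proteins, fell, beside 13.5% of all tested genes, though Tcf12 kept its call in only 9 of 16 alternatives. Tcf3, which encodes E12 and E47, was at 145 ± 16.6 CPM with budesonide and 208 ± 10.3 CPM without, a 1.44-fold fall (edgeR adjusted p = 1.79e-08). Tcf4 fell 1.56-fold (adjusted p = 4.42e-10) and Tcf12 1.18-fold (adjusted p = 0.0164). Tcf12 lost its call in DESeq2 (0.130), with limma (0.0786), and without budesonide replicate 3 (0.248) or untreated replicate 1 (0.0534) or 3 (0.0702). Per kb of exon Tcf3 was at 36.0 ± 4.12 CPM with budesonide and 51.6 ± 2.54 CPM without, above Id3, the most abundant Id gene, in both groups.

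**Figure D4:**
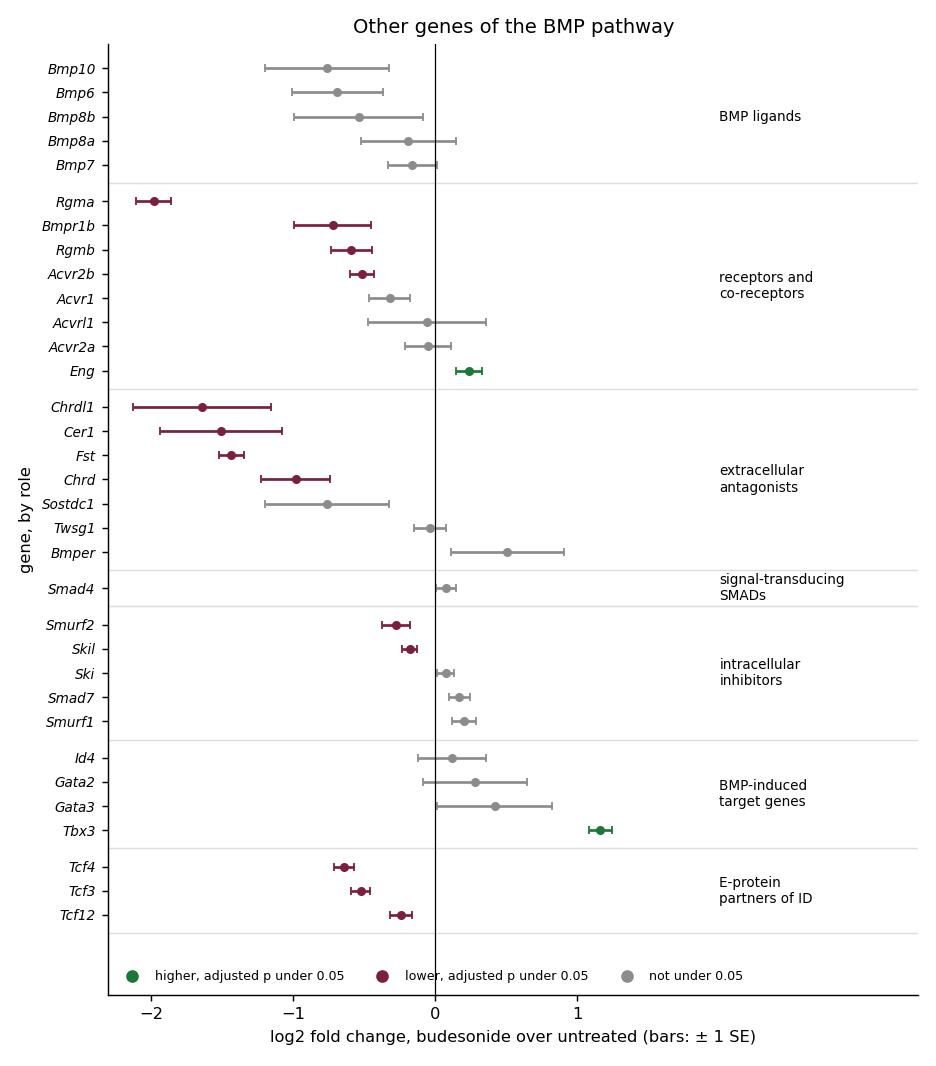
Log2 fold change, budesonide over untreated, of the 33 tested genes of the wider pathway, grouped by role, with bars of 1 SE (n = 3 libraries a group) and colour by call. Rgma and Fst lie far left of 0 with short bars, Chrdl1 and Cer1 with long ones, Tbx3 lies farthest to the right, and all 5 ligands are uncoloured.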

How the data were processed

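Per the labels' protocols, RNA was made into libraries with a stranded mRNA kit. Tools in the submitters' processing notes are featureCounts 2.0, STAR 2.7.5c, cutadapt 2.5, bcl2fastq and DESeq2, with the build GRCm39. Neither annotation nor strand setting is stated, so overlapping genes on opposite strands may share reads; Gm15217 opposite Bmp4 and Gm17110 opposite Bmpr1a had means of at most 0.201 CPM in either group. The authors deposited raw counts for 53819 symbols. They also deposited a normalized signal for 33560 genes, in which each library's counts are scaled by 1 factor (largest deviation 0.00562 reads).

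Counts were tested with edgeR 4.0.16 in R 4.3.3 (robust quasi-likelihood, TMM) on the 2 groups alone. The filter was filterByExpr at its count of 10 and total of 15, and p-values were adjusted by Benjamini-Hochberg over the 17155 genes left. Standard errors came from the F statistic, and 95% intervals of log2 fold changes are normal intervals from them. Counting intervals are exact and cover counting error only. Exon lengths came from GENCODE M21. Libraries of a group differed by 1.43 to 3.14 times counting noise per gene, so none repeated another. On simulated counts for this comparison (16571 genes tested) 42% of 1.25-fold, 74% of 1.5-fold, 92% of 2-fold and 100% of 4-fold changes were recovered among genes of at least 5 CPM, so small changes can be missed, and recovery below 5 CPM was not measured.

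The genes and lists were chosen with earlier results of these data known. All 10 genes and any gene of the 7 role lists could be named. Alternatives were DESeq2 1.42.0, limma 3.58.1 on log2 of the normalized signal plus 1, RLE, upper quartile and no scaling, other filters, the replicate block, a threshold of 0.01, glmTreat and each library left out.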

Additional observations from a re-analysis of the deposited data

How the results depend on the processing

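No gene of the 10 was called higher under any alternative, and Smad6 kept its call in all 16. Of the 10 genes 2 were called lower in DESeq2 (Smad5 and Smad6; Id1 had no adjusted p), 3 at an adjusted p under 0.01, 1 with glmTreat against 1.5-fold, and 3 to 4 with 1 library left out (3 without untreated replicate 1 or 2), not 5; the cause was not tested. Under upper quartile scaling 6 of the 10 were called lower, and without scaling factors 7. The median log2 fold change of the 10 was -0.40 without scaling factors, -0.37 under upper quartile scaling, and -0.32 to -0.28 with a library left out. For single genes among the 10, 136 of 158 repeats kept the call or the lack of one, 18 lost a call and 4 gained one. In 0 repeats did a gene called in either fit change direction. Genes called in neither fit counted as kept even where their sign changed. Bmp4 reached a log2 fold change of 0.09 and Id3 one of -0.005 in this way. For the wider pathway these were 466, 49, 5 and 0 of 520. Of its genes, 1 was called higher, not 2, in DESeq2, without a filter, without scaling factors, under upper quartile scaling, with limma, the 0.01 threshold or glmTreat, and 1 to 4 with a library left out. Called lower were 8 in DESeq2, 2 with glmTreat and 8 to 12 with a library left out, not 13. The count was 14 under upper quartile scaling, without scaling factors and with a filter at 1 CPM in 3 libraries. Over all genes DESeq2 called 1318 lower, not 2316, and glmTreat 325 higher and 398 lower. The replicate block called 5 of the 10 lower and changed none of these counts by over 1.5 times. Deviations from the group mean correlated at 0.04, 0.06 and -0.02 between replicates of the same number, and at -0.07 to 0.03 between different numbers. For replicates 1 and 2 the same-number value was the higher, and for replicate 3 it was not. All lay near 0, where counting noise also pulls them, so they cannot tell whether replicates of the same number share an origin. Precision was lowest for genes with few reads: the SE of the log2 fold change was 0.57 for Id1 and 0.38 for Bmp4, and 0.07 for Bmpr1a.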

Other observations

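Atoh8, a helix-loop-helix gene induced by BMP, had 1, 2 and 1 reads in the budesonide libraries and 7, 15 and 8 reads in the untreated libraries. It had too few reads for the gene test and is singled out after its values were seen, so these values are a description. Its level was at or below the 95th percentile of the receptor genes in all 3 budesonide libraries and in 2 of 3 untreated libraries.

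Within-library ratios of related genes are given as a description with no test, since the pairs were chosen after their values were seen and Smad6, Id1 and Rgma were already known to be lower. The ratio of Smad6 to Smad7 reads was 0.0120, 0.0206 and 0.0168 in budesonide libraries and 0.0432, 0.0674 and 0.0499 in untreated libraries. The ratio of Id1 to Id3 was 0.0420, 0.00877 and 0.0341 with budesonide, where Id1 had 1 to 5 reads, and 0.0758, 0.113 and 0.122 without. The ratio of Rgma to Rgmb was 0.667, 0.986 and 0.795 with budesonide and 2.26, 1.99 and 2.04 without.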
